A study of Mus musculus with 30 samples.

Results

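The glycolytic enzymes described here are the products of 10 genes, *Hk1*, *Hk2*, *Pfkl*, *Pfkp*, *Aldoa*, *Tpi1*, *Pgk1*, *Eno1*, *Pkm* and *Ldha*. They were found by symbol among the protein-coding rows of the count tables, pseudogenes left out, and make up 11 of 56941 gene rows. *Aldoa* has a second row (ENSMUSG00000114515) with 16 reads over all libraries, which did not pass the filter on low counts, so that 10 rows were tested at both times. The cells were mHypoA-2/12, an immortalized line made from neurons of the adult mouse hypothalamus, grown in high-glucose medium with serum before treatment. For the medium of the CBD and vehicle cells the paper does not list serum. They received cannabidiol (CBD), a compound of *Cannabis sativa*, at 0.325, 0.75, 1.5 or 3 µM, or the DMSO vehicle alone, for 6 h or 24 h. Each of the 10 groups held 3 libraries of 3′ mRNA-Seq. All groups came from the same line, with no genetic change between them. The labels do not say whether the 3 libraries of a group were separate cultures, so the p-values measure the spread between libraries, which may be technical.

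Glycolysis splits glucose into pyruvate in the cytosol and yields ATP and NADH without oxygen. Its early steps spend ATP and hold the main points of control (hexokinase, phosphofructokinase), and its late steps return ATP (phosphoglycerate kinase, pyruvate kinase). Lactate dehydrogenase A then turns pyruvate into lactate and restores the NAD+ that the pathway needs. In brain, astrocytes are known for strong glycolysis and lactate release, and cell lines grown on high glucose commonly run glycolysis even where oxygen is present. Several of these genes, *Hk2*, *Pgk1* and *Ldha* among them, are textbook targets of the transcription factors HIF-1 and Myc.

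The 5′ flanks of *Ldha*, *Hk2*, *Aldoa* and *Pkm* are shown because these 4 genes were lower at 24 h than at 6 h in vehicle cells, as described further on. They are the 250 bases before the RefSeq start (GRCm38.p6) nearest to the GENCODE start of the gene. They are printed 5′ to 3′ on the gene's strand. The RefSeq start lies 4329 bases from the GENCODE start for *Ldha*, 304 for *Aldoa*, 208 for *Pkm* and 0 for *Hk2*. The flanks of *Ldha* and *Aldoa* thus lie within the gene spans given further on, and that of *Pkm* overlaps its span. Capitals mark ACGTG, the core letters of the HIF response element, or its reverse complement CACGT. The 2 overlap in CACGTG, the E-box that Myc binds. The flank of *Ldha* is chr7:46845554-46845803 (plus strand), that of *Hk2* chr6:82774455-82774704 (minus strand), that of *Aldoa* chr7:126800448-126800697 (minus strand) and that of *Pkm* chr9:59656326-59656575 (plus strand).
Ldha: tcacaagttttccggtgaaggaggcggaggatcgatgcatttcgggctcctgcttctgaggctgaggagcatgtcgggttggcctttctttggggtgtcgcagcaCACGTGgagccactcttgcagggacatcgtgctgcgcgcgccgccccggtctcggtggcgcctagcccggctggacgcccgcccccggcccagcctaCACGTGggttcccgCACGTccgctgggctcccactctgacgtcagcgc
Hk2: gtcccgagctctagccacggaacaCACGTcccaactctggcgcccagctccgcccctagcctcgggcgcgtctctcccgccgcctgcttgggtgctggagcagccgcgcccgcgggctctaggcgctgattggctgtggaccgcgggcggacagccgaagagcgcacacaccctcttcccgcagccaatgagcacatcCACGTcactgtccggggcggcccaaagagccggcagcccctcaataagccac
Aldoa: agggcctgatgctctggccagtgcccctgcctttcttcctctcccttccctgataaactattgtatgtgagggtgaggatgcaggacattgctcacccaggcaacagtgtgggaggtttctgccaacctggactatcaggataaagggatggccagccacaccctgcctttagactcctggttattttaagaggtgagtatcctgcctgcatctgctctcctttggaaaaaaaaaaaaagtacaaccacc
Pkm: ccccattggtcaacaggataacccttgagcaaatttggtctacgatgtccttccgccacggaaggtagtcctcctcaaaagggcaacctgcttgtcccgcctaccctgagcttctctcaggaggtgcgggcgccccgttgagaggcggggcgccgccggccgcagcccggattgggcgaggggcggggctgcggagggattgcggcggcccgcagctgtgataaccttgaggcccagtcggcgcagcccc
Counted on both strands, *Ldha* held ACGTG 5 times, at −145, −144, −48, −47 and −34 from the start. It has 2 CACGTG sites, and each counts on both strands, at −145 and −144 and at −48 and −47. *Hk2* held ACGTG at −226 and −52 on the same count, and *Aldoa* and *Pkm* did not hold it in this window. Over the 10 genes, 3 (*Hk2*, *Pgk1* and *Ldha*) held ACGTG and 1 held CACGTG, beside 16.6% and 6.02% of 32851 promoters of this length. GGGCGG, the letters of a GC box, was found in 6 of the 10 and in 32.7% of all promoters. *Aldoa* has 3 starts in the table and *Pkm* and *Ldha* 2 each, so that other starts may be the ones in use. A match is a description of the letters and not a site shown to be bound in these cells.

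The libraries were named A1 to A30 by the authors. Libraries A1 to A3 were vehicle, A4 to A6 3 µM, A7 to A9 1.5 µM, A10 to A12 0.75 µM and A13 to A15 0.325 µM at 6 h. Libraries A16 to A18 were 3 µM, A19 to A21 1.5 µM, A22 to A24 0.75 µM, A25 to A27 0.325 µM and A28 to A30 vehicle at 24 h. Reads on genes ranged from 1839621 to 4420675 per library. The share of reads outside genes was 17.7% to 22.2%, with group means at 24 h of 21.4% in vehicle, 21.4% at 3 µM and 19.4% to 19.7% at the lower doses. Of 10 neuronal markers, 8 were above 1 CPM on average, with *Tubb3* at 49.3 CPM, *Map2* at 23.3 CPM and *Stmn2* at 15.4 CPM, while *Rbfox3* (0.589 CPM) and *Snap25* (0.0406 CPM) were near 0. The mesenchymal genes *Vim* (2209 CPM) and *Col1a1* (2063 CPM) were among the most abundant markers. *Cartpt*, *Ghsr*, *Mc3r*, *Aqp4*, *Olig1*, *Olig2*, *Sox10* and *Cldn5* had no reads. Of 11 genes of feeding-circuit neurons, 2 were above 1 CPM on average, *Insr* (9.15 CPM) and *Npy1r* (1.71 CPM). Over all libraries *Npy* had 1 read and *Agrp* 15. Some genes of the glial lists were present, *Tmem119* at 243 CPM, *Pdgfra* at 30.2 CPM, *Slc1a2* at 18.9 CPM and *Cx3cr1* at 14.6 CPM, whereas *Gfap* and *Aif1* were each at 0.028 CPM. The summed level of the 7 mesenchymal markers lay between 5614 and 7315 CPM over the libraries, that of the 10 neuronal markers between 153 and 235 CPM and that of the 5 microglial markers between 145 and 342 CPM. Only 2 of the 5 microglial markers reached 1 CPM on average, and *Tmem119* made up most of their sum. *Ptprc* (0.744 CPM) and *P2ry12* (0.105 CPM) were near 0. The part of the marker genes in the results below was not tested.

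Levels are given as CPM, the standard depth-scaled read count, here of reads on genes after TMM scaling over all 30 libraries. A 3′ library gives about 1 fragment per transcript whatever its length, so CPM was not divided by length, and a level still depends on how much of the 3′ end maps to a single place. *Pkm*, pyruvate kinase, had the highest level of the 10, with a median of 1056 CPM over the 30 libraries. *Aldoa*, aldolase A, followed with 539.6 CPM and *Ldha* with 442 CPM. *Tpi1*, triose phosphate isomerase, was at 152 CPM, *Hk1* at 121 CPM, *Hk2* at 111 CPM, *Pfkl* at 87.8 CPM, *Eno1* (enolase) at 69.2 CPM and *Pfkp* at 34.4 CPM. *Pgk1*, phosphoglycerate kinase, was lowest at 3.29 CPM, from 265 reads over all libraries and 0 to 26 per library. The ranges over libraries of neighbours in this order did not overlap between *Ldha* and *Tpi1*, between *Eno1* and *Pfkp* and between *Pfkp* and *Pgk1*, and overlapped for the other 6 pairs of neighbours. Together the 10 genes took 0.197% to 0.341% of the reads on genes, the highest share in A16.

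Some 3′ ends are shared with other genes, and this sets how sure a count is. In windows of 50 bases over the last 500 bases of the longest coding transcript, 75.2% of those of *Eno1* were also found in transcripts of other genes, most often *Eno1b*, a close copy annotated as protein-coding. The share was 7.3% for *Pgk1* and 3.3% for *Aldoa*, and 0 for the other 7. The values of *Eno1* are therefore uncertain, since its counts hold only reads that the aligner could place apart from its copy. The 2515 reads of *Eno1b* over all libraries compare with 5772 of *Eno1*. The *Pkm* counts join its M1 and M2 forms, which differ in an inner exon that 3′ reads do not reach.

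**Figure D1:**
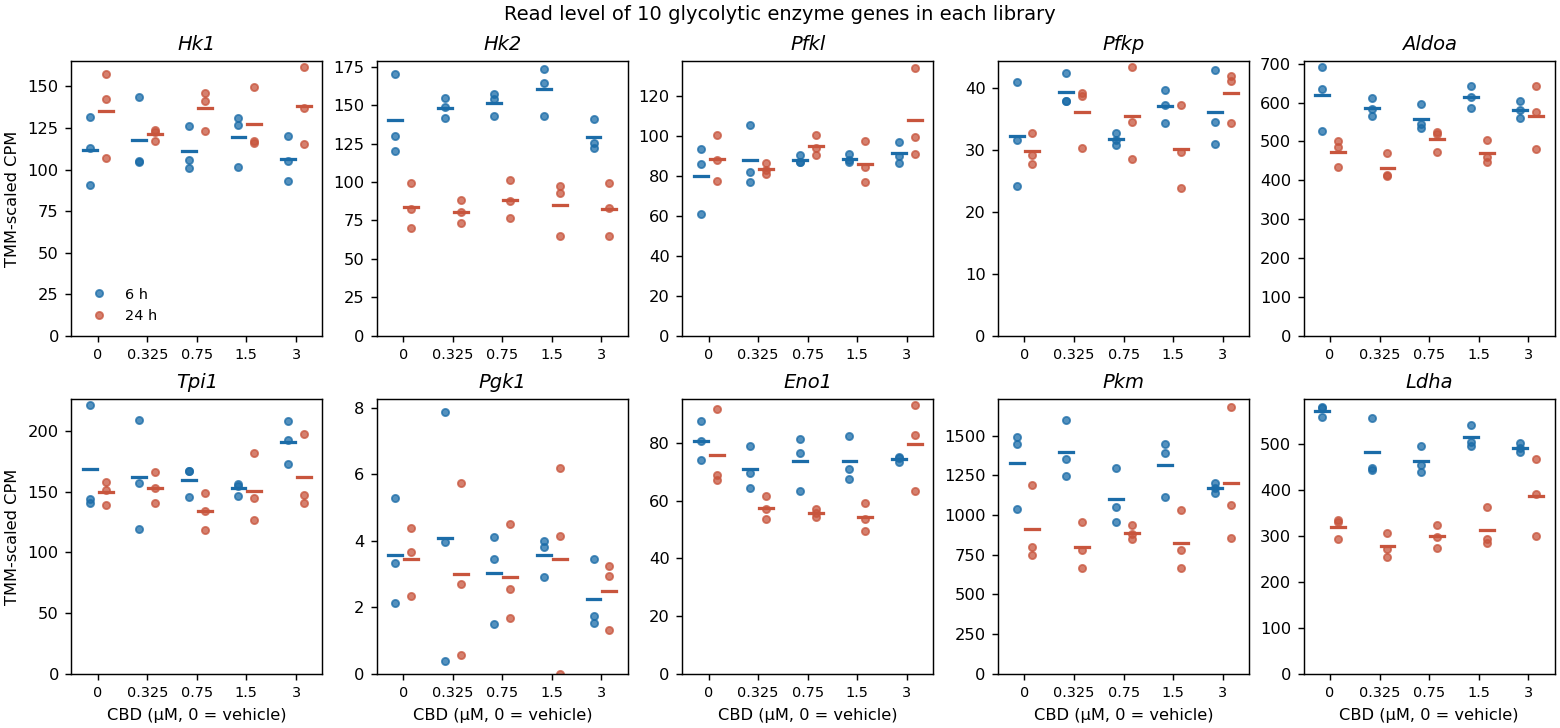
TMM-scaled CPM (linear axis from 0) of each of the 10 genes against the CBD dose, with 0 for vehicle, at 6 h (blue) and 24 h (red). Each point is 1 library and each bar the mean of 3. *Hk2* and *Ldha* sit lower at 24 h than at 6 h at every dose, *Eno1* at 24 h is lowest at 0.325 to 1.5 µM, and the *Pgk1* points spread from 0 to 7.87 CPM.

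After 6 h, the first question was whether CBD changed any of the 10 genes against vehicle. None passed an FDR of 0.1 in the quasi-likelihood test of edgeR, for the 4 doses together (background 0.749% of 12012 genes tested) or for 0.325 µM (0.2%), 0.75 µM (0.0749%), 1.5 µM (0.0999%) or 3 µM (0.05%) alone. DESeq2 also called 0 in each of these contrasts. At an unadjusted p below 0.05, 1 of the 10 was found for the doses together, 1 at 0.325 µM, 1 at 0.75 µM and 0 at the higher 2 doses, where 10.3%, 8.8%, 7.79%, 7.91% and 7.26% of all genes tested were that low. The 10 log2 fold changes of the doses together lay between −0.26 (*Pgk1*) and 0.17 (*Pfkp*), with a median of −0.06 beside −0.02 over all genes.

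*Ldha* (ENSMUSG00000063229, chr7:46841475-46855627, plus strand, GRCm38), which encodes the A subunit of lactate dehydrogenase, came nearest. In vehicle at 6 h it was at 578, 582 and 559 CPM in A1 to A3. At 0.325 µM the levels were 556, 443 and 448 CPM, at 0.75 µM 454, 440.1 and 495 CPM, at 1.5 µM 505, 542 and 497 CPM, and at 3 µM 483, 492 and 502 CPM. All 12 CBD libraries lay below all 3 vehicle libraries, a pattern that 1.46% of the genes tested showed in either direction, and the nearest pair (556 and 559 CPM) almost touched. The log2 fold change of the doses together was −0.23 (SE 0.09, 95% interval −0.43 to −0.04), with FDR = 0.36. There was no order by dose: the log2 fold changes were −0.25, −0.31, −0.16 and −0.22 from the lowest to the highest dose, with SE 0.12 each.

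Among the genes of the preparatory steps, *Hk1* (ENSMUSG00000037012, chr10:62268855-62379908, minus strand), the widespread hexokinase of the brain, had a log2 fold change of 0.03 (95% interval −0.25 to 0.31) for the doses together at 6 h. *Hk2* (ENSMUSG00000000628, chr6:82725025-82774454, minus strand), the inducible hexokinase, had 0.06 (−0.18 to 0.29). The phosphofructokinase genes *Pfkl* (ENSMUSG00000020277, chr10:77986947-78010083, minus strand) and *Pfkp* (ENSMUSG00000021196, chr13:6579768-6648777, minus strand), for the liver and platelet subunits, had 0.16 (−0.11 to 0.44) and 0.17 (−0.17 to 0.52). *Aldoa* (ENSMUSG00000030695, chr7:126795234-126800751, minus strand) had −0.08 (−0.28 to 0.11) and *Tpi1* (ENSMUSG00000023456, chr6:124810586-124814296, minus strand) −0.04 (−0.33 to 0.25). The intervals of all 6 of these genes included 0.

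In the steps that return ATP, *Pgk1* (ENSMUSG00000062070, chrX:106187100-106203699, plus strand) had −0.26, with an interval from −1.33 to 0.82 that its few reads leave wide. *Eno1* (ENSMUSG00000063524, chr4:150236721-150248879, plus strand) had −0.14 (−0.39 to 0.11) and *Pkm* (ENSMUSG00000032294, chr9:59656368-59679375, plus strand) −0.10 (−0.34 to 0.14). Among the 4 doses at 6 h, 0 of the 10 genes differed (0 of all genes tested), with 0 at an unadjusted p below 0.05 and 0 by DESeq2. *Hk2* alone did not overlap between 3 µM and the lower doses at 6 h (background 1.52%): it was at 126, 122 and 141 CPM at 3 µM and from 142 to 173 CPM in the other 9 CBD libraries, a log2 difference of −0.24 (SE 0.12, FDR = 0.905).

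**Figure D2:**
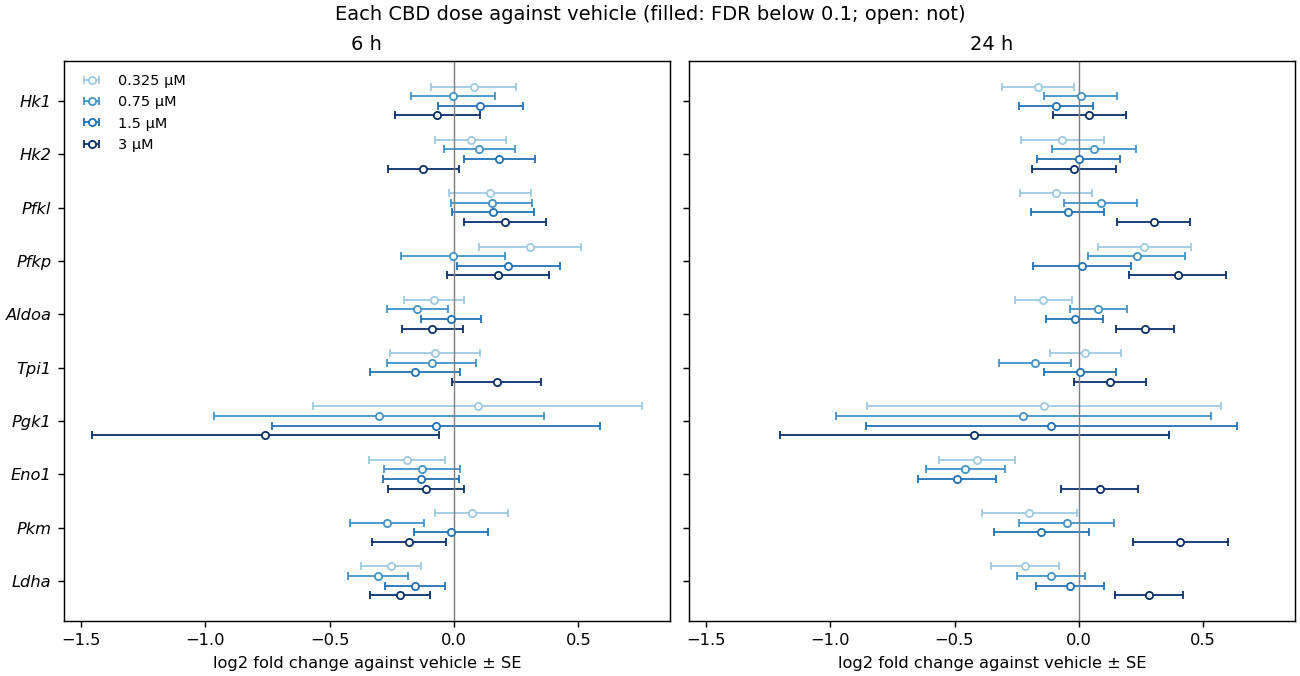
log2 fold change (± SE) of each CBD dose against vehicle for the 10 genes, at 6 h (left) and 24 h (right), from the edgeR fit of the 15 libraries of a time. All markers are open, since 0 of the 10 genes passed an FDR of 0.1 at any dose. *Ldha* is below 0 at all 4 doses at 6 h, and *Eno1* is between −0.41 and −0.49 at the 3 lower doses at 24 h.

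After 24 h, CBD again changed 0 of the 10 genes against vehicle at FDR 0.1, for the 4 doses together (background 0.107% of 12118 genes) and for 0.325 µM (0.066%), 0.75 µM (0.0825%), 1.5 µM (0.0413%) and 3 µM (0.00825%), by edgeR and by DESeq2. At an unadjusted p below 0.05 the counts were 1 for the doses together, 1 at each of the lower 3 doses and 4 at 3 µM, beside 6.73% of all genes for the doses together, 7.34% to 8.33% at the lower doses and 9.16% at 3 µM. From the lowest to the highest dose, the median log2 fold change of the 10 genes was −0.14, −0.02, −0.04 and 0.20, beside medians within 0.01 of 0 over all genes. At 3 µM, 8 of the 10 were above 0, while 8 of 10 were below 0 at 0.325 µM and at 1.5 µM.

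*Eno1* at 24 h was at 68.7, 91.8 and 67.0 CPM in vehicle. At 0.325 µM the levels were 56.9, 53.7 and 61.5 CPM, at 0.75 µM 55.7, 54.3 and 57.2 CPM, and at 1.5 µM 49.5, 59.2 and 53.8 CPM. At 3 µM it was at 93.0, 63.4 and 82.9 CPM. The 9 libraries of the lower doses all lay below the vehicle libraries, and those of 3 µM spanned them. At each of the lower 3 doses *Eno1* was the single gene of the 10 without overlap with vehicle, where 13.3%, 15% and 13.1% of all genes tested had none at 0.325, 0.75 and 1.5 µM. Its log2 fold changes there were −0.41 (SE 0.15, FDR = 0.467), −0.46 (SE 0.16, FDR = 0.412) and −0.49 (SE 0.16, FDR = 0.515), and 0.08 (SE 0.15, FDR = 0.886) at 3 µM.

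At 3 µM and 24 h the highest log2 fold changes against vehicle were those of *Pkm* (0.41, 95% interval 0.02 to 0.80, FDR = 0.53) and *Pfkp* (0.40, −0.0017 to 0.80, FDR = 0.545). *Pfkp* was at 34.4, 42.0 and 41.2 CPM at 3 µM and at 27.7, 32.8 and 29.3 CPM in vehicle, the single gene of the 10 without overlap in that contrast (background 10.3%). *Pfkl* (0.30), *Ldha* (0.28) and *Aldoa* (0.27) were next, with FDRs from 0.511 to 0.544. *Hk1* (0.04), *Hk2* (−0.02) and *Tpi1* (0.12) were nearer to 0. The lowest value was that of *Pgk1* (−0.42), from few reads, with means of 2.50 CPM at 3 µM and 3.45 CPM in vehicle.

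The contrast of 3 µM with the 3 lower doses at 24 h was the one dose contrast in which glycolytic genes passed the threshold. This contrast was chosen with earlier results of these data known. Of the 10, 4 were higher at 3 µM and 0 lower, beside 10.5% of 12118 genes (6.36% higher and 4.16% lower). They were *Eno1*, *Pkm* and *Ldha* of the late steps and *Aldoa* of the middle of the pathway. The median log2 difference of the 10 genes was 0.26, beside 0.0053 over all genes.

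*Pkm*, which forms pyruvate and ATP, was at 1679.8, 855 and 1063 CPM in A16, A17 and A18 (3 µM). At 0.325 µM it was at 668, 777 and 953 CPM, at 0.75 µM at 939, 852 and 879 CPM, and at 1.5 µM at 781, 1032 and 666 CPM. A16 stood far above all other libraries of 24 h, whose next highest was a vehicle library with 1191 CPM, while A17 lay within the range of the lower doses. The log2 difference of 3 µM from the lower doses was 0.54 (SE 0.15, FDR = 0.0364).

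*Ldha* was at 467, 299.6 and 392 CPM in A16 to A18. Its levels at the lower doses ran from 254 to 363 CPM, with 272, 254 and 305 CPM at 0.325 µM, 298, 324 and 274 CPM at 0.75 µM and 285, 363 and 293 CPM at 1.5 µM. A16 and A18 were above all 9 of them and A17 was within their range. The log2 difference was 0.40 (SE 0.11, FDR = 0.0305).

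*Aldoa*, which splits fructose bisphosphate, was at 642, 481 and 576 CPM at 3 µM and between 410.3 and 524 CPM at the lower doses (log2 difference 0.29, SE 0.09, FDR = 0.0577). *Eno1*, which makes phosphoenolpyruvate, had the lowest FDR of the 10 (log2 difference 0.54, SE 0.13, FDR = 0.0156), and all 3 libraries of 3 µM were above all 9 of the lower doses, as in 4.6% of all genes tested in either direction. *Pfkl* fell just outside the threshold (0.32, SE 0.12, FDR = 0.11), with 134 CPM in A16 against 76.8 to 101 CPM at the lower doses. *Hk1* (0.12), *Hk2* (−0.02), *Pfkp* (0.23), *Tpi1* (0.17) and *Pgk1* (−0.26) did not pass, with FDRs from 0.417 to 0.957.

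A single library carried much of this difference. A16 had the highest level of the 30 libraries for *Hk1*, *Pfkl*, *Eno1* and *Pkm* and the lowest for *Hk2*. Without A16, 0 of the 10 genes passed (68 genes in all), and the log2 differences were 0.40 for *Eno1* (FDR = 0.22), 0.23 for *Ldha* (FDR = 0.408), 0.20 for *Pkm* (FDR = 0.583) and 0.18 for *Aldoa* (FDR = 0.471). Without A17, 5 passed (2303 genes in all), with *Pfkl* joining at 0.42 (FDR = 0.0327), and without A18, 2 passed (447 genes in all), *Eno1* and *Pkm*. *Aldoa* also missed the threshold without A19, A23 or A26 (log2 differences 0.27 to 0.28, FDRs from 0.105 to 0.119). The share of reads outside genes was higher at 3 µM than at the lower doses, as given above, and once that share entered the fit 0 of the 10 passed (30 genes in all), while the differences of *Pkm* (0.94, SE 0.27) and *Eno1* (0.87, SE 0.24) became larger and less certain. By DESeq2, *Pkm* did not pass (0.54, FDR = 0.122) and *Pfkl* did (0.32, FDR = 0.0993).

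The close copy *Eno1b* moved with *Eno1* and further. It was at 72.0, 21.4 and 28.9 CPM in A16 to A18 and between 13.2 and 19.7 CPM in the 9 libraries of the lower doses, a log2 difference of 1.38 (SE 0.23, FDR = 0.0017), and of 0.66 (FDR = 0.175) without A16. With the reads of *Eno1b* added to those of *Eno1*, the joint log2 difference was 0.77 (SE 0.14, FDR = 0.0026). Which of the copies the reads came from cannot be told apart where their sequence is shared. A test for any difference among the 4 doses at 24 h called 0 of the 10 genes (background 1.93%), with *Eno1* at FDR = 0.115 and *Ldha* at FDR = 0.155. It found 4 at an unadjusted p below 0.05 (14.5% of all genes) and 3 by DESeq2 (*Aldoa*, *Eno1* and *Ldha*, beside 4.34% of all genes).

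**Figure D3:**
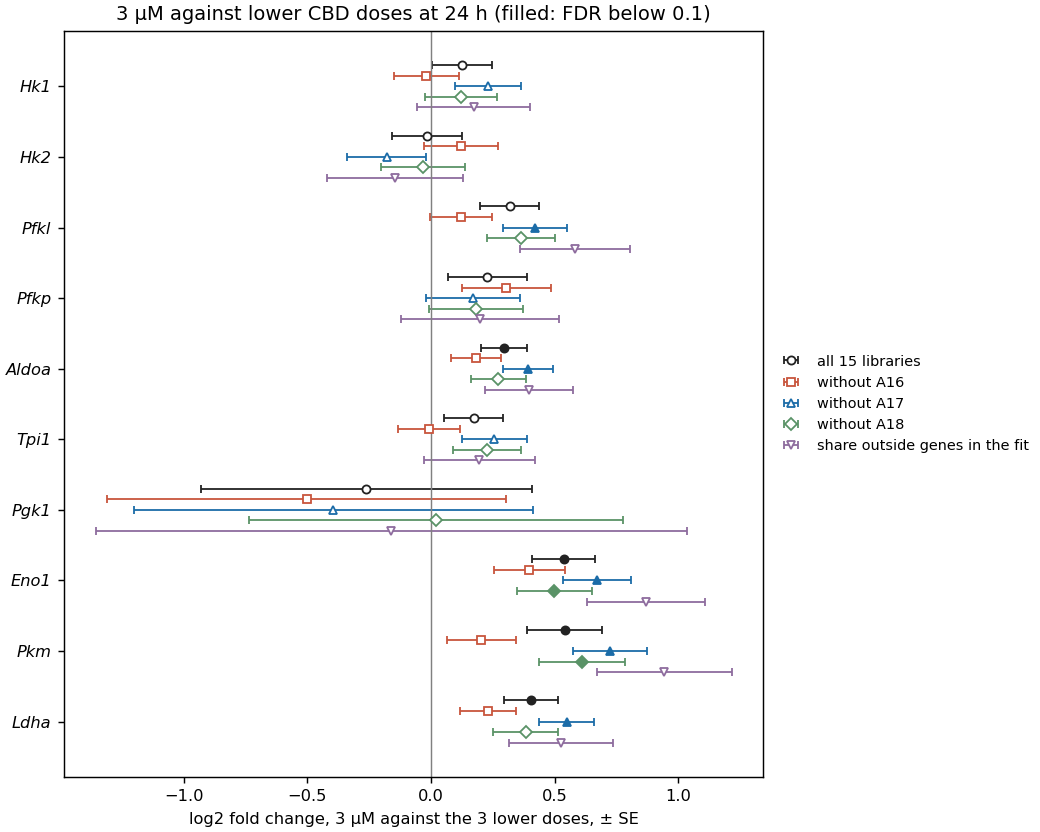
log2 difference (± SE) of 3 µM from the 3 lower CBD doses at 24 h for the 10 genes, with all 15 libraries (black), without each 3 µM library in turn and after fitting the share of reads that missed genes (purple). Filled markers passed an FDR of 0.1. *Aldoa*, *Eno1*, *Pkm* and *Ldha* are filled with all libraries and open without A16.

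The largest differences in the pathway were between the times, and they were present in vehicle cells. In vehicle, 4 of the 10 genes were lower at 24 h than at 6 h and 0 higher, beside 26.7% of 12790 genes (12.5% higher and 14.2% lower). They were *Hk2*, *Aldoa*, *Pkm* and *Ldha*, from the first step to the last. The median log2 difference of the 10 was −0.16, beside −0.03 over all genes. Time in culture, time since the vehicle was added and time in the treatment medium cannot be told apart here. Nor can fewer cells of a kind and less RNA per cell.

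*Ldha* was at 578, 582 and 559 CPM at 6 h and at 294, 329.9 and 336 CPM at 24 h in vehicle, with no overlap. The log2 difference was −0.84 (SE 0.13, FDR = 2e-05), a level of 0.558 times that at 6 h. *Hk2* was at 120.1, 130.2 and 170.2 CPM at 6 h and at 82.7, 99.1 and 70.4 CPM at 24 h, again with no overlap (log2 difference −0.75, SE 0.16, FDR = 0.001). *Aldoa* was at 635, 693 and 527 CPM and then at 434, 500.3 and 487 CPM (−0.38, SE 0.12, FDR = 0.0156). *Pkm* was at 1489.7, 1450.2 and 1039.8 CPM and then at 747, 1191 and 797 CPM, so that its groups overlapped (−0.54, SE 0.19, FDR = 0.0371). Thus 3 of the 10 genes did not overlap between the times, where 31.8% of all genes tested did not.

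*Ldha* and *Hk2* kept an FDR below 0.1 whichever library was left out. Without A1, *Pkm* did not pass (−0.44, FDR = 0.135), and *Hk1* did, at 0.43 (FDR = 0.0919). Without A2 only *Ldha* and *Hk2* passed, with *Aldoa* at −0.28 (FDR = 0.123) and *Pkm* at −0.46 (FDR = 0.129). Without A28, *Aldoa* (−0.31, FDR = 0.107) and *Pkm* (−0.40, FDR = 0.205) did not pass and *Hk1* was higher at 24 h (0.45, FDR = 0.0836). Without A30, *Pkm* was at −0.44 (FDR = 0.169). *Hk1* in the fit of all libraries was at 0.28 (SE 0.16, FDR = 0.233). *Pfkl* (0.16), *Pfkp* (−0.09), *Tpi1* (−0.19), *Pgk1* (−0.14) and *Eno1* (−0.09) did not pass.

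The same contrast was then made in CBD-treated cells. In the 3 lower doses together, 5 of the 10 genes were lower at 24 h and 0 higher (background 51.8%, 26.6% lower and 25.2% higher), namely *Hk2* (−0.86, SE 0.09), *Ldha* (−0.72, SE 0.08), *Pkm* (−0.60, SE 0.11), *Eno1* (−0.38, SE 0.09) and *Aldoa* (−0.32, SE 0.07), with FDRs from 1.1e-09 to 0.00052. All of these but *Pkm* had no overlap between the 9 libraries of 6 h and the 9 of 24 h, and 9.95% of all genes had none. At 3 µM, 2 passed, both lower (background 16.6%, 7.84% lower and 8.8% higher), *Hk2* (−0.65, SE 0.16, FDR = 0.0077) and *Ldha* (−0.35, SE 0.13, FDR = 0.0728). The values of *Pkm* (0.04, SE 0.19), *Aldoa* (−0.04, SE 0.12) and *Eno1* (0.10, SE 0.15) at 3 µM were near 0. *Ldha* at 3 µM missed the threshold without A17 (−0.20, FDR = 0.39) and without A4, A5, A6, A8 or A18 (−0.33 to −0.36, FDRs from 0.101 to 0.165). Without A16, *Ldha* was at −0.50 (FDR = 0.013), *Pkm* at −0.28 (FDR = 0.369) and *Aldoa* at −0.13 (FDR = 0.566) at 3 µM.

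**Figure D4:**
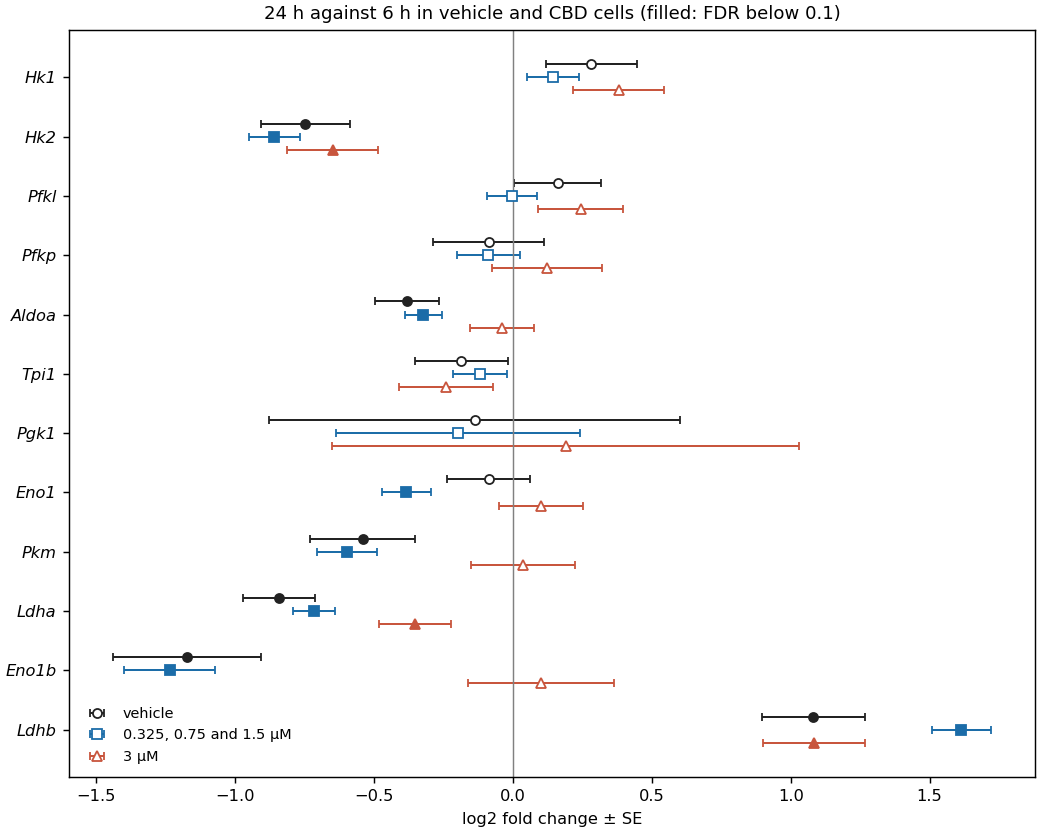
log2 difference (± SE) of 24 h from 6 h in vehicle (black circles), in 0.325, 0.75 and 1.5 µM together (blue squares) and at 3 µM (red triangles), for the 10 genes and for *Eno1b* and *Ldhb*. Filled markers passed an FDR of 0.1. *Hk2* and *Ldha* are below 0 and filled in all 3 settings, and *Ldhb* is above 0 and filled in all 3.

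Whether the response itself differed between the times was tested directly on all 30 libraries. The change from vehicle to CBD at 24 h less that at 6 h passed for 0 of the 10 genes (background 0.235%), with 0 at an unadjusted p below 0.05 and 0 by DESeq2, and the values lay between −0.18 (*Eno1*) and 0.22 (*Ldha*). The difference of 3 µM from the lower doses at 24 h less that at 6 h passed for 0 of the 10 (background 2.39%), with 4 at an unadjusted p below 0.05 (16.6% of all genes) and 1, *Pkm*, by DESeq2 (4.42%). It was 0.63 (SE 0.22, FDR = 0.135) for *Pkm*, 0.48 (SE 0.18, FDR = 0.155) for *Eno1*, 0.36 (SE 0.15, FDR = 0.208) for *Ldha* and 0.28 (SE 0.13, FDR = 0.271) for *Aldoa*. The pattern at 3 µM and 24 h was thus not shown to differ from that at 6 h for any of them in edgeR.

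For 2 steps the isoenzyme genes moved apart over time. *Hk2* reads made up 55.5% ± 8.97 (SD, n = 3) of the reads of both hexokinase genes in vehicle at 6 h and 38.6% ± 6.74 (SD, n = 3) at 24 h. Over the CBD groups the means were 55.0% to 57.8% at 6 h and 37.6% to 39.9% at 24 h. *Ldhb*, the gene of the other lactate dehydrogenase subunit, which is known to favour the step from lactate to pyruvate, rose while *Ldha* fell. In vehicle it was at 18.9, 28.8 and 36.1 CPM at 6 h and at 62.4, 60.3 and 59.6 CPM at 24 h (log2 difference 1.08, SE 0.19, FDR = 7.9e-05).

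The *Ldhb* share of the reads of both subunit genes was 4.65% ± 1.45 (SD, n = 3) in vehicle at 6 h and 16% ± 1.31 (SD, n = 3) at 24 h. In the CBD groups of 24 h, from the lowest to the highest dose, it was 24.8% ± 3.40, 21.7% ± 3.98, 22.7% ± 1.62 and 15.6% ± 3.42 (SD, n = 3 each). All 9 libraries of the lower doses had a share above the 3 of vehicle (17.7% to 28.3% against 15.1% to 17.5%), and 1 of the 3 at 3 µM did. The nearest pair, A23 (17.7%) and A28 (17.5%), almost touched. The share was not tested, and how often other gene pairs part in this way was not counted. *Ldhb* itself was at 0.45 (SE 0.12, FDR = 0.255) for the 4 doses together against vehicle at 24 h, and at −0.33 (SE 0.12, FDR = 0.114) for 3 µM against the lower doses. It passed at no single dose against vehicle at 24 h, with FDRs from 0.254 to 0.713. *Pfkp* made up 25.3% to 31.3% of the reads of the pair *Pfkl* and *Pfkp* in the group means. In vehicle the share was 28.7% ± 3.52 at 6 h and 25.3% ± 0.894 at 24 h, and at 1.5 µM 29.5% ± 1.86 and 25.8% ± 2.01 (SD, n = 3 each), a difference that was not tested.

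**Figure D5:**
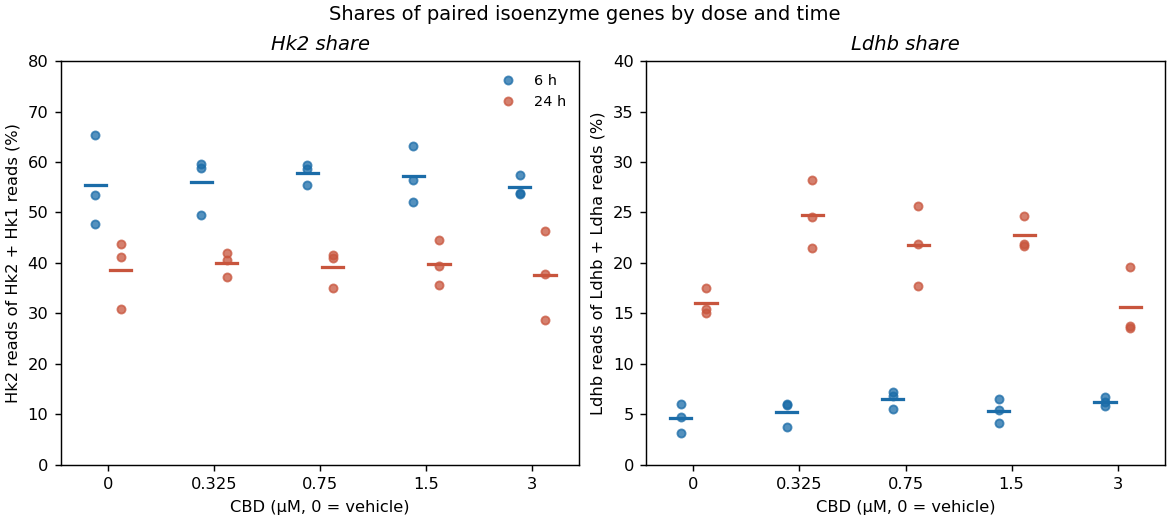
Share (%) of *Hk2* in the reads of *Hk1* and *Hk2* (left) and of *Ldhb* in the reads of *Ldha* and *Ldhb* (right) against the CBD dose, at 6 h (blue) and 24 h (red). Points are libraries and bars means of 3, on axes from 0. The *Ldhb* share is 3.17% to 7.17% over the 6 h libraries and 13.6% to 28.3% over those of 24 h.

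The other genes of the pathway were counted from fixed lists. Of 23 other glycolytic genes, 12 were tested, and in vehicle 3 were higher and 4 lower at 24 h than at 6 h. This and the list counts below stand beside 12.5% higher and 14.2% lower of all genes over time in vehicle, and 6.36% and 4.16% for 3 µM against the lower doses. *Ldhb* (1.08), *Pfkm* (1.12, the muscle phosphofructokinase) and *Aldoc* (1.43, the aldolase of brain) rose. *Eno1b* fell by 1.17, *Eno3* (muscle enolase) by 0.71 and *Gpi1* (glucose phosphate isomerase) by 0.42 on the log2 scale, with FDRs from 0.0017 to 0.0454 for these 3. Without A28 *Aldoc* was at 1.13 (FDR = 0.156), and without A2, A28 or A30 *Gpi1* was between −0.29 and −0.35 (FDRs from 0.181 to 0.247). At 3 µM and 24 h, 2 of the 12 were higher than at the lower doses and 0 lower, *Eno1b* and *Gpi1* (0.48, SE 0.12, FDR = 0.0182), and without A16 *Gpi1* was at 0.31 (FDR = 0.266).

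Of 14 genes of glucose and lactate transport, 9 were tested over time, and in vehicle 5 were higher and 3 lower at 24 h. *Slc2a1*, the main glucose carrier, fell by 0.79 and the lactate carriers *Slc16a1* and *Slc16a3* fell by 0.81 and 0.74 on the log2 scale, with FDRs of 0.0091, 0.0015 and 0.0196. *Emb*, a partner protein of the lactate carriers, rose by 0.93 and *Slc2a8*, an intracellular glucose carrier, by 1.36. *Slc2a4*, the insulin-responsive glucose carrier, passed as higher (FDR = 0.0099) from a level near 0, with 0.178 CPM ± 0.308 at 6 h and 2.47 CPM ± 1.11 at 24 h (SD, n = 3), so that no fold is given. *Slc2a1* did not pass without A3 (−0.43, FDR = 0.232), nor *Slc16a3* without A28 (−0.56, FDR = 0.146). At 3 µM and 24 h *Slc16a1* (0.61, FDR = 0.013) and *Slc16a3* (0.72, FDR = 0.0385) were higher than at the lower doses. Without A16 they were at 0.50 (FDR = 0.171) and 0.33 (FDR = 0.567).

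Of 19 regulators of glycolytic flux, 16 were tested over time, and in vehicle *Pfkfb4* (1.29, FDR = 0.0065), which sets the level of an activator of phosphofructokinase, was higher at 24 h and *Myc* (−1.89, FDR = 0.0423) lower. *Myc* was at −0.41 (FDR = 0.798) without A3, and did not pass without A28 or A29 either (−1.56 and −1.77). *Pfkfb4* was also the 1 of 15 that passed at 6 h for the 4 CBD doses together (1.44, SE 0.32, FDR = 0.0437, and 1.26, FDR = 0.223, without A2). In that contrast 0.749% of all genes passed. At 3 µM and 24 h *Pdha1* (0.43, FDR = 0.0383) was higher and *Txnip* (−0.86, FDR = 0.0239), which restrains glucose uptake, lower than at the lower doses, at 0.35 (FDR = 0.284) and −0.72 (FDR = 0.185) without A16. Of 26 genes of the side branches, 22 were tested, and in vehicle 1 was higher and 5 lower at 24 h. The serine synthesis genes *Psat1* and *Psph* fell by 0.74 and 1.12 on the log2 scale, and *Taldo1* and *Tkt* of the pentose phosphate pathway by 0.45 and 0.53. *Pgm2* fell by 0.74 and *Sord* of the polyol pathway rose by 0.56. Of these 6, *Psat1* and *Psph* passed whichever library was left out, and the other 4 each missed the threshold without at least 1 library (FDRs up to 0.221). At 3 µM and 24 h *Pgls* (0.60) and *Tkt* (0.43) were higher and *Phgdh* (−0.72), the first enzyme of serine synthesis, lower than at the lower doses, and without A16 they were at 0.41 (FDR = 0.311), 0.27 (FDR = 0.458) and −0.76 (FDR = 0.158).

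Of 16 HIF-1 targets outside glycolysis, 13 were tested at 6 h and over time. In vehicle 2 were higher at 24 h, *Adm* (1.44) and *Bnip3l* (0.53), and 3 lower, *Vegfa* (−1.12), *Ero1a* (−0.86, listed as *Ero1l*) and *Ndrg1* (−0.61). The median of the 13 was −0.21, beside −0.03 over all genes, and *Ndrg1* was at −0.38 (FDR = 0.135) without A2. At 6 h 1 of 13 passed for the CBD doses together (background 0.749%), *Ndrg1* (−0.85, SE 0.14, FDR = 0.0048, and −0.62, FDR = 0.115, without A2). The median log2 fold change of the 13 was −0.12, beside −0.02 over all genes.

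The 10 genes were not alike in how they varied within a time. With log2 CPM centred on the mean of each time, the correlation of each gene with the mean profile of the 10, of which it is itself a part, was 0.87 for *Pkm*, 0.83 for *Aldoa*, 0.78 for *Ldha*, 0.73 for *Eno1*, 0.69 for *Pfkl* and 0.61 for *Hk1* over the 30 libraries. It was 0.43 for *Pfkp*, 0.21 for *Pgk1*, 0.07 for *Hk2* and −0.02 for *Tpi1*. The 5 other genes nearest to the mean profile were *Gm10269* (0.856), *Dhx15* (0.853), *Eif3k* (0.851), *Nomo1* (0.849) and *Rpl35-ps1* (0.849), of 12790 genes. These correlations share depth, normalization and A16, and are given as a description.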

How the data were processed

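The 30 libraries of the mHypoA-2/12 line, made by 3′ mRNA-Seq, were grouped by the labels into 10 groups of 3. According to the submitters' processing notes and the study's methods, reads were trimmed with Flexbar, aligned with STAR 2.7.5c to GRCm39 and counted per Ensembl gene with HTSeq 1.99.2. The deposited values are raw counts of reads per gene, 1 table per library, that the authors did not normalize. Summary lines of the tables entered only the share of reads outside genes.

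Each time was fitted as 15 libraries, and contrasts over time on all 30, with group means in edgeR 4.0.16 (R 4.3.3), after filterByExpr and TMM scaling. The quasi-likelihood F-test was corrected over every gene in the fit (Benjamini-Hochberg), and FDR below 0.1 counted as passing. Intervals are 95% and use the t distribution of the fit. The steps were tested on simulated data.

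The members, the lists and the contrasts of 3 µM with the 3 lower doses were chosen with earlier results of these data known. All 10 members are named in every comparison. Genes of other lists are named when they passed, at most 6 per list and contrast, in vehicle over time, in 3 µM against the lower doses at 24 h and in the 4 doses together against vehicle, and *Eno1b*, *Ldhb* and the 5 genes nearest to the mean profile in any case. Alternatives were DESeq2 1.42.0, RLE scaling, no filter, at least 10 counts in every library, a covariate for the share of reads outside genes, only the groups compared, and each library left out in turn. The contrasts over time in CBD cells, and the reads of *Eno1b* added to *Eno1*, were added after values were seen. Names and positions came from GENCODE M21 (GRCm38), an older build than that of the counts, which named 51948 of 56941 gene rows. Promoter sequences are from RefSeq (GRCm38.p6), and all 10 genes matched.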

Additional observations from a re-analysis of the deposited data

Results flagged for a closer look

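2 genes of the lists outside the 10 members differed between the times, each in a separate test of the difference itself on all 30 libraries. Of all 12790 genes, 2.39% passed the test for 3 µM against the lower doses. In the test for CBD against vehicle 0.235% passed. *Eno1b*, the close copy of *Eno1*, had a difference of 3 µM from the lower doses that was 1.34 larger on the log2 scale at 24 h than at 6 h (SE 0.31, edgeR FDR = 0.0647), and 0.64 (FDR = 0.42) without A16. It missed the threshold without A4, A5 or A6 as well (1.28 to 1.37, FDRs from 0.118 to 0.183). *Ndrg1*, a HIF-1 target, had a change from vehicle to CBD that was 0.94 higher at 24 h than at 6 h (SE 0.19, edgeR FDR = 0.0331), and 0.72 (FDR = 0.177) without A2. It missed the threshold without A29 (0.95, FDR = 0.107) or A30 (0.87, FDR = 0.147). For the 10 glycolytic genes no such difference passed.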

How the results depend on the processing

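Of 4388 values of single members under the alternatives, 4302 kept their direction and side of the threshold or, uncalled, changed direction by less than their SE. A call was lost by 30 and gained by 18. The other 38, none of them called, changed direction by at least their SE. None of the called values reversed. Against vehicle, 0 members passed at either time, at any dose or together, under every alternative run, and leaving out a library gave 0 to 0. For 3 µM against the lower doses at 24 h the count was 4, beside 10.5% of all genes. It was 0 to 5 when a library was left out and 0 with a covariate for reads outside genes. For any difference among the doses at 24 h it was 0 (1.93% of all genes), and 3 by DESeq2 (4.34%). It was 3 without a filter on low counts, 1 with *Eno1b* reads added to *Eno1* and 0 to 4 when a library was left out. For the difference between the times in 3 µM against the lower doses it was 0 (2.39% of all genes), and 1 by DESeq2 (4.42%). It was 1 without a filter, 1 with *Eno1b* reads added and 0 to 3 when a library was left out. Over time it was 4 in vehicle (26.7% of all genes), 5 at the lower doses (51.8%) and 2 at 3 µM (16.6%). When a library was left out it was 2 to 4 in vehicle, 5 to 6 at the lower doses and 1 to 3 at 3 µM. At 3 µM it was 1 without a filter and 1 with the covariate. The share of all genes that passed changed with the setting as well, and is not given here for every alternative. The causes were not tested. No paired analysis was possible because no label gives groups a common replicate number. *Pgk1*, with 265 reads over all libraries, had the widest 95% intervals of the 10 genes. How many of its reads aligned to more than 1 place was not examined.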

Other observations

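*Gapdh*, chosen after its values were seen, is the enzyme between *Tpi1* and *Pgk1* and a common reference gene. It ranged from 13.8 CPM (a library of 0.325 µM at 6 h) to 111 CPM (a vehicle library at 6 h), with 27.7, 41.1 and 111 CPM among the 3 vehicle libraries of 6 h. Its log2 fold change for the 4 doses together was −0.35 (SE 0.31, edgeR FDR = 0.776) at 6 h and 0.0041 (SE 0.19, edgeR FDR = 0.999) at 24 h. Whether the 3′ end of *Gapdh* is shared with other genes was not examined.

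In the 3 lower doses together, *Ldhb* was 1.61 higher at 24 h than at 6 h on the log2 scale (SE 0.11, edgeR FDR = 8.1e-15), beside 1.08 (SE 0.18, FDR = 0.00016) at 3 µM and 1.08 in vehicle.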
